A study of Mus musculus with 2 samples.

Results

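The Reg genes encode small secreted C-type lectins. All 7 members (Reg1, Reg2, Reg3a, Reg3b, Reg3d, Reg3g and Reg4) were chosen by name among the 41174 gene probes of a mouse array. Each member had 1 probe and 1 spot, so the family made up 7 of 26582 gene names or unnamed transcripts on the array. Intestinal RNA of 20 week old male C57BL/6 mice on a normal diet was compared between gut-specific GDE5 (Gpcpd1) deficient animals, given as GDE5 KO, and wild-type animals. Both RNAs were hybridised together on 2 dual-colour arrays. Dyes were swapped between them, with the RNA labelled knockout in Cy3 on replicate 1. The series text names 5 mice, without saying if the animals were pooled or whether 1 extract served both arrays. The driver of the gut-specific deletion, the part of the gene removed and the stretch of gut sampled are not given in the sources used here. A p-value here rests on how far 2 hybridisations differ, a spread that limma draws towards that of all probes. That spread may be technical.

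Reg proteins have a single C-type lectin domain and are secreted by gut epithelium and by the exocrine pancreas. REG3B and REG3G are antibacterial lectins that keep bacteria away from the small intestinal surface. Their genes are known to be switched on by bacterial signals through MyD88 and by interleukin-22, which acts on epithelial cells through STAT3. Reg1, Reg2 and Reg3d were first described in pancreas and islets, and Reg4 is known from secretory cells of the crypt.

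The probes are shown because each value below rests on a single one of them. They are 60 bases long, and the first 30 bases of each are printed 5′ to 3′ in lower case, as the array design gives them.
Reg1: ggaccatctatcaaaagcaaattagatcct
Reg2: acagtactcctttgtctgcaagttcagagc
Reg3a: cccatgacaagggatgaaatacaagaattc
Reg3b: gtgaagactcacctagaaaaagcattttct
Reg3d: ggccagttctgatttcaactgcctgaaagt
Reg3g: gagtacagaattgacatcatgggttgatat
Reg4: gcattgcgctgagatgaaccccaaggataa

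The longest run of bases shared by any pair of these probes was 8, between Reg2 and Reg3d. Matches of a probe to the transcripts of other members were not tested, so a signal from a related transcript cannot be told apart. On the build mm9, 6 of the probes lie in a cluster on chromosome 6 that runs over 93157 bases and holds no other probe of the array. In order they are Reg3b (chr6:78323323-78323382, plus strand), Reg3d (chr6:78326006-78326065, minus strand), Reg3a (chr6:78333635-78333694, plus strand), Reg2 (chr6:78357959-78358018, plus strand), Reg1 (chr6:78378527-78378586, plus strand) and Reg3g (chr6:78416420-78416479, minus strand). The Reg4 probe lies apart, at chr3:98037005-98040251 on the plus strand. That interval is longer than the probe, which thus joins separate exons. The design file does not say for the other probes whether they lie in coding sequence or in a UTR.

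Across both arrays 69.3% to 76.1% of gene spots were well above background, and 29047 probes could be tested because they were so for the same genotype on both arrays. With 2 arrays, their number limits the precision. Epithelial markers were present, with 11 of 11 enterocyte genes tested. The targeted gene went against the labels: of the 4 Gpcpd1 probes 0 were lower on both arrays and 3 were higher on both, with mean log2 ratios from -0.13 to 0.68. Directions below therefore rest on the dye labels. Ratios turned to knockout over wild type correlated at r = -0.38 between the arrays over all tested probes, at -0.22 with a fitted surface removed, and at -0.00834 in the scanner software's processed ratios; genes are not independent replicates.

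Reg transcripts were slightly lower in the RNA labelled knockout for most members, and no difference reached 1.5-fold on both arrays. Reg1, Reg3a, Reg3d and Reg4 were lower on both arrays, Reg3b was higher on both, and Reg2 and Reg3g went opposite ways. Lower on both arrays were thus 4 of 7 members, against 18.8% of all tested probes, and higher on both 1 of 7, against 17.4%. The median log2 ratio of the family was -0.18 (-0.26 in replicate 1 and -0.08 in replicate 2), against -0.01 over all tested probes. The summed signal of the 7 probes was 210000 and 254000 in the RNA labelled knockout and 237000 and 247000 in the RNA labelled wild type, a ratio of 0.888 and 1.03, on either side of 1. These sums are mostly the signals of Reg3b and Reg3g, whose log2 signals ran from 16.20 to 17.11, against 13.52 at most for the other members. They say little of those other members. At least 1.5-fold lower on both arrays were 0 of 7 members and 0.0482% of probes, and 0 of 7 and 0.12% were as much higher. By limma with Benjamini-Hochberg adjustment 0 of 7 members and 0% of probes passed at 0.05, and 0 members had an unadjusted p under 0.05, against 1.22% of probes. In bulk tissue, fewer cells of a type and less RNA per cell cannot be told apart.

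**Figure D1:**
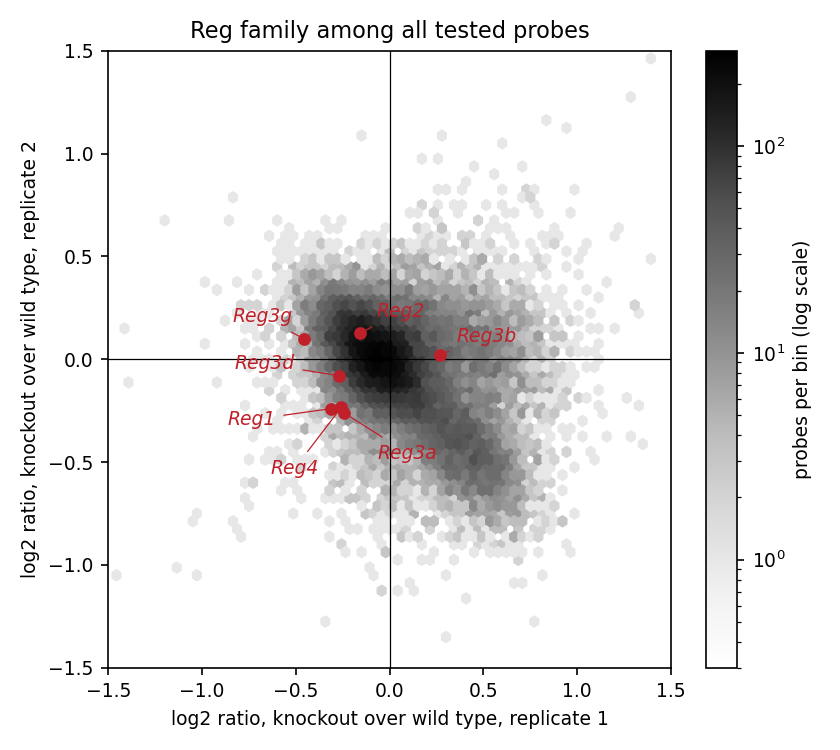
Log2 ratio of RNA labelled knockout over RNA labelled wild type on replicate 1 (x axis) and replicate 2 (y axis), with the density of all tested probes in grey and the 7 members as red points; 10 tested probes lie outside the plotted range. Reg1, Reg3a and Reg4 lie together near -0.25 on both axes, and Reg3g is at -0.46 and 0.10.

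With normexp and loess, Reg1, Reg3a and Reg4 were the members on which the arrays came closest to each other. That order depended on the processing. In the scanner software's processed ratios the arrays came closest on Reg3b (SD 0.043) and Reg3g (SD 0.079). With median centring they came closest on Reg3b and Reg3d. Reg1 was then at -0.14 and -0.46 and Reg4 at -0.175 and -0.43 (replicates 1 and 2). Signals are given on the log2 scale after background correction, loess and scaling between arrays. A signal is comparable between genotypes for 1 probe, not between probes.

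Reg1, a lectin known from pancreatic juice and gut, had a log2 signal of 9.07 and 8.98 in the RNA labelled knockout (replicates 1 and 2) and of 9.38 and 9.22 in the RNA labelled wild type. Both knockout signals lay below both wild type signals. Its log2 ratio was -0.31 and -0.24 (replicates 1 and 2), with a mean of -0.28 ± 0.05 (SD, n = 2), or 1.21-fold lower. The 95% interval of the limma fit ran from -0.64 to 0.09 (adjusted p = 1).

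Reg3a, which in mouse belongs to the antibacterial Reg3 group, had log2 signals of 13.28 and 13.25 in the RNA labelled knockout and of 13.52 and 13.51 in the RNA labelled wild type. The genotypes did not overlap. Its log2 ratio was -0.24 and -0.26, with a mean of -0.25 ± 0.01 (SD, n = 2), or 1.19-fold lower. The interval ran from -0.61 to 0.11 (limma, adjusted p = 1).

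Reg4, the member outside the cluster, had log2 signals of 12.55 and 12.61 in the RNA labelled knockout and of 12.81 and 12.85 in the RNA labelled wild type, again without overlap. Its log2 ratio was -0.26 and -0.23, with a mean of -0.25 ± 0.02 (SD, n = 2), or 1.19-fold lower. The interval ran from -0.61 to 0.11 (limma, adjusted p = 1). The share of tested probes with a lower mean ratio was 1.39% for Reg1, 1.73% for Reg3a, 1.84% for Reg4, 4.45% for Reg3g, 4.68% for Reg3d, 47.5% for Reg2 and 88.2% for Reg3b.

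Reg3d, known in mouse from islets and pancreas, was a dim probe. Its raw signal was 70.1 and 82.4 in the RNA labelled knockout and 98.2 and 87.5 in the RNA labelled wild type, over local backgrounds of 25.5 to 40. The log2 signals were 6.63 and 6.74 against 6.91 and 6.82, without overlap. The log2 ratio was -0.27 and -0.08, with a mean of -0.18 ± 0.14 (SD, n = 2). In the scanner software's processed ratios, which carry no offset on dim spots, it was -0.33 and -0.57, with a mean of -0.45 ± 0.17 (unadjusted p = 0.0365, adjusted p = 0.866 by limma). In all, 4 of 7 members had both knockout signals below both wild type signals, as did 14.2% of tested probes, and 0 of 7 had both above, as did 11.7%.

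**Figure D2:**
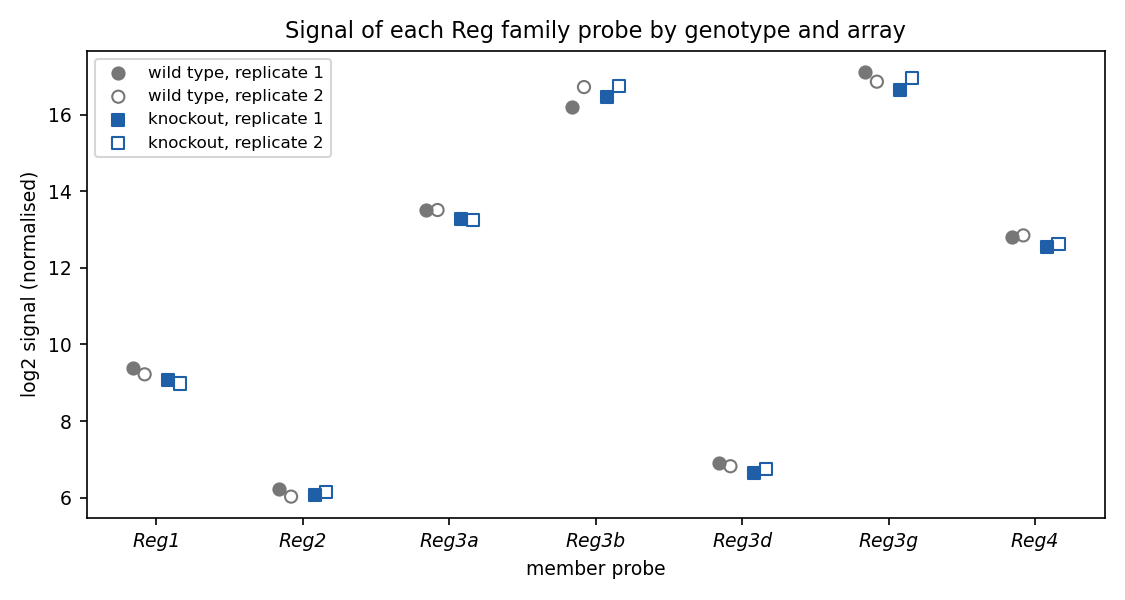
Log2 signal (y axis, after background correction, loess and scaling between arrays) of each member probe (x axis) for the RNA labelled wild type (grey circles) and the RNA labelled knockout (blue squares), with replicate 1 filled and replicate 2 open. The genotypes do not overlap for Reg1, Reg3a, Reg3d and Reg4; heights cannot be compared between probes.

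The main antibacterial pair, Reg3b and Reg3g, showed no shared direction. The software marked none of their spots as saturated.

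Reg3b had a raw signal of 87392 and 104870 in the RNA labelled knockout and of 78357 and 110050 in the RNA labelled wild type. Its log2 signals were 16.46 and 16.74 in the first and 16.20 and 16.72 in the second, and they overlapped. The log2 ratio was 0.27 and 0.02, with a mean of 0.14 ± 0.17 (SD, n = 2; interval -0.25 to 0.54; limma adjusted p = 1). In the processed ratios it was 0.07 and 0.01.

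Reg3g had a raw signal of 99007 and 122940 in the RNA labelled knockout and of 150430 and 121430 in the RNA labelled wild type. Its log2 signals were 16.65 and 16.96 in the first and 17.11 and 16.86 in the second. Its log2 ratio was -0.46 and 0.10 (replicates 1 and 2), so the arrays disagreed in sign (mean -0.18 ± 0.39, SD, n = 2; interval -0.71 to 0.35; limma adjusted p = 1). In the processed ratios it was -0.24 and -0.13, below 0 on both arrays. The software marked no Reg3g or Reg3b spot as an outlier. Still, with the marked spots of other probes kept in background correction and loess, Reg3g was at -0.46 and 0.57 (mean 0.05). Reg3b was then at 0.26 and 0.47, so the values of this pair depend on the fit to other spots. With normexp and loess Reg3g had the widest spread between arrays of the 7 members.

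Reg2, the closest relative of Reg1 in this cluster, was near background. Its raw signal was 33.0 and 56.1 in the RNA labelled knockout and 61.3 and 36.1 in the RNA labelled wild type, and in replicate 2 the knockout channel was not well above background. The log2 ratio was -0.16 and 0.13, with a mean of -0.02 ± 0.20 (SD, n = 2). The processed ratios were -1.15 and -0.03, so replicate 1 alone gave the low mean of -0.59 ± 0.79 (unadjusted p = 0.0264, adjusted p = 0.765 by limma).

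**Figure D3:**
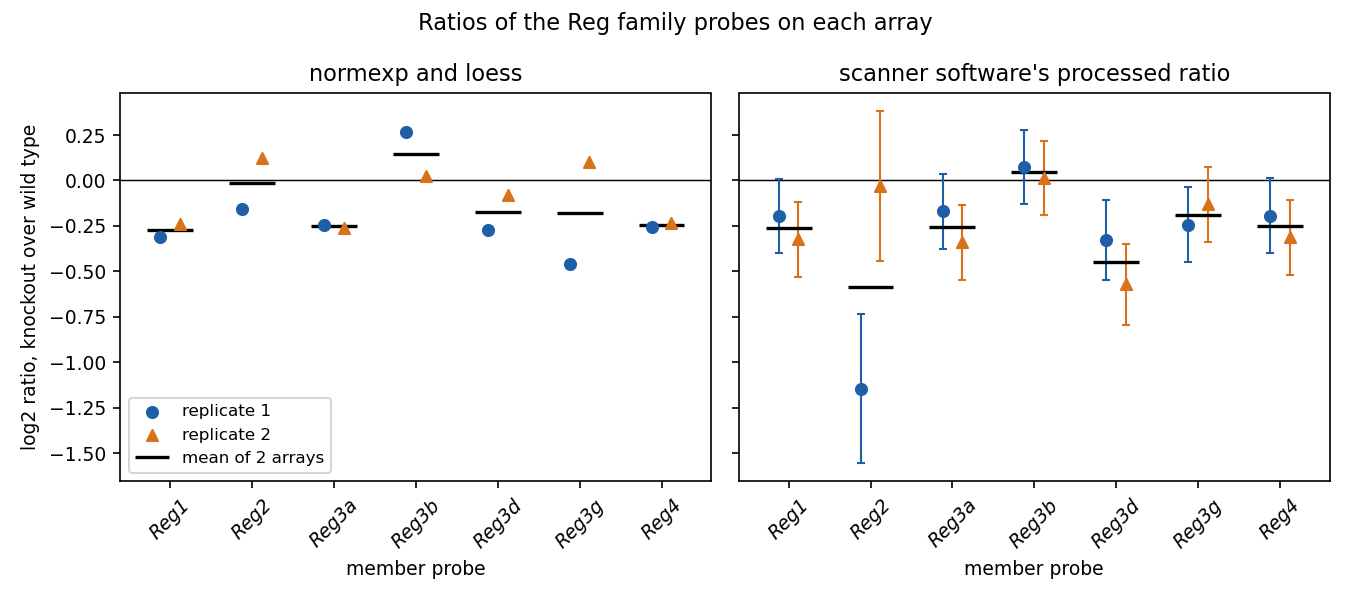
Log2 ratio of RNA labelled knockout over RNA labelled wild type (y axis) for each member probe (x axis) in replicate 1 (blue circles) and replicate 2 (orange triangles), with the mean of the 2 arrays as a black bar; left, normexp and loess, right, the scanner software's processed ratio with that software's error of each spot. On the right 6 of 7 members lie below 0 on both arrays, and Reg2 in replicate 1 stands at -1.15.

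With the processed ratios 6 of 7 members were lower on both arrays, against 21.5% of tested probes, and Reg3b was higher on both, against 20.7%. The family median was then -0.25, against -0.02 over all tested probes. By limma 0 of 7 members passed there, against 0.275% of probes, and 2 members, Reg2 and Reg3d, had an unadjusted p under 0.05, against 5.17% of probes. In that software's error model a single spot carried an error of 0.20 to 0.41 on the log2 scale, and the ratios of Reg1, Reg3a and Reg4 (-0.17 to -0.34) were of that size. Over 10 processing settings Reg1 stayed between -0.31 and -0.25, Reg3a between -0.31 and -0.22 and Reg4 between -0.30 and -0.24. Reg3b ranged from 0.04 to 0.37 and Reg3d from -0.45 to -0.15. The 10 settings are not all distinct for the members. Dropping the filter on dim probes or taking the brightest probe of a gene cannot change their ratios, and the deposited value table repeats the processed ratios.

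**Figure D4:**
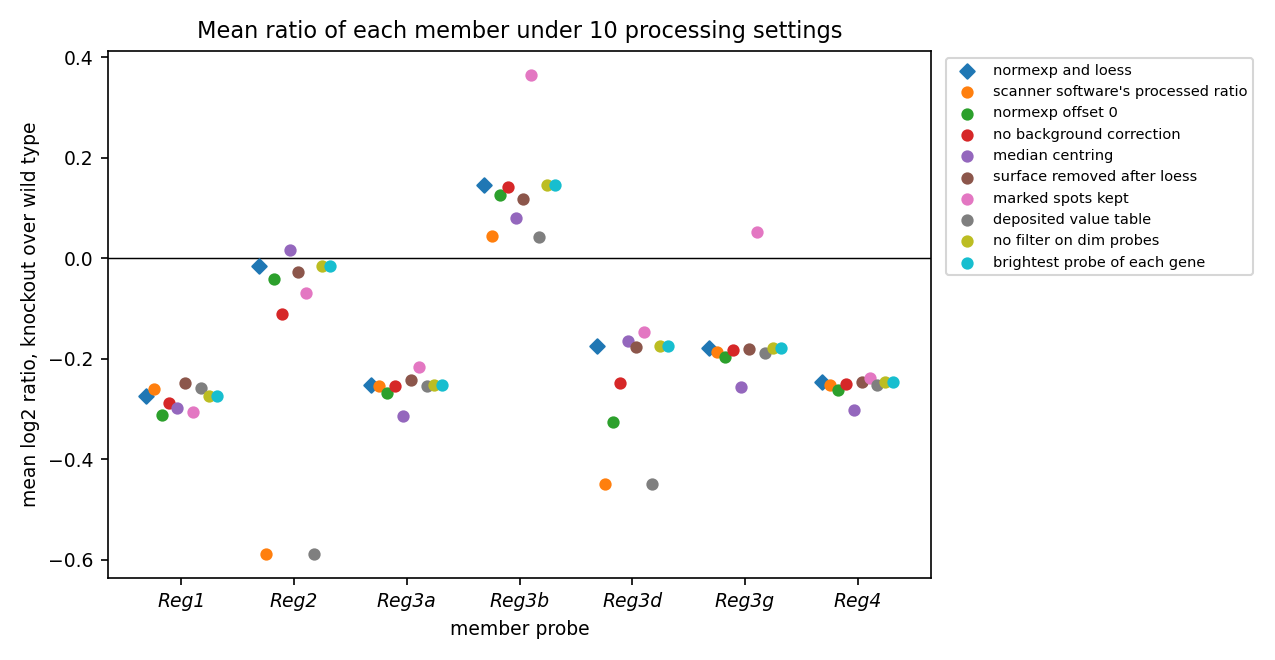
Mean log2 ratio of the 2 arrays, RNA labelled knockout over RNA labelled wild type (y axis), for each member (x axis) under 10 processing settings (colours; the diamond is normexp and loess). Reg1, Reg3a, Reg3d and Reg4 stay below 0 and Reg3b above 0 under all 10, while Reg2 and Reg3g cross 0 under 1 setting each. Dropping the filter on dim probes or taking the brightest probe cannot change a member's ratio, since each has 1 probe. The deposited value table repeats the processed ratios.

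The promoters of the members are printed to show which genes of the family share start-site sequence. RefSeq's table on GRCm38.p6 had 1 window for each of the 7 genes, from 250 bases before to 50 after the start. The 60 bases before the start follow, 5′ to 3′ on the strand of the gene, with TATAAA in capitals.
Reg1 (chr6:78425923-78425982, plus): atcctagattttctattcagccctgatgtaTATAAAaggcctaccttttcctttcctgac
Reg2 (chr6:78405095-78405154, plus): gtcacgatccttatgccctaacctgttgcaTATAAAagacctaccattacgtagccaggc
Reg3a (chr6:78380649-78380708, plus): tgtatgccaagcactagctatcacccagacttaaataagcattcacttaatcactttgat
Reg3b (chr6:78370825-78370884, plus): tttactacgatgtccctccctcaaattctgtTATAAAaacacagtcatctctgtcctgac
Reg3d (chr6:78378866-78378925, minus): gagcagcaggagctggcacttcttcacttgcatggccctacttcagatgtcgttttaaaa
Reg3g (chr6:78468875-78468934, minus): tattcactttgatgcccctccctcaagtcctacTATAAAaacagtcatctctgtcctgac
Reg4 (chr3:98222096-98222155, plus): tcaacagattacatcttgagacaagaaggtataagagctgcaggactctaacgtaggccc

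Reg3b and Reg3g shared a run of 20 bases in these stretches, the longest of the 21 pairs. Over the whole windows of 300 bases they were identical at 210 of 300 bases in a global alignment, and the other pairs at 158 to 184. TATAAA, sought on the gene's own strand within 40 bases before the start, was present in Reg1, Reg2, Reg3b and Reg3g and in 2.41% of 32851 RefSeq promoters. Of the 4 members lower on both arrays with normexp and loess, Reg1 alone holds it. Of the 6 lower on both in the processed ratios, Reg1, Reg2 and Reg3g hold it. A link of the motif to the direction was not tested. The STAT motif TTCNNNGAA, which reads the same on both strands, occurred in the windows of Reg3b and Reg3d and in 8.30% of all promoters. It starts 129 bases before the start of Reg3b, as ttcttggaa, and 238 bases before that of Reg3d, as ttcccagaa. A match describes these letters only.

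The cytokine that drives Reg3b and Reg3g in the gut had a lower signal in the RNA labelled knockout by the processed ratios. Il22, interleukin-22, has 2 probes on the array, and both also list the transcript of its near copy Iltifb, so the genes cannot be told apart. Probe A_52_P177054 had a raw signal of 43.7 and 64.4 in the RNA labelled knockout and of 89.9 and 78.0 in the RNA labelled wild type, over local backgrounds of 25 to 43. In the processed signals these were 24.4 and 26.3 against 61.7 and 69.2, and the genotypes did not overlap. The processed log2 ratio was -1.34 and -1.40, with a mean of -1.37 ± 0.04 (SD, n = 2), or 2.58-fold lower, and it passed limma over all probes (adjusted p = 0.00276). The second probe entered the test through the wild type alone, as the knockout was not well above background in replicate 2. Its raw signal there was 50.2 over a local background of 45. Its processed log2 ratio was -1.16 and -2.12 (mean -1.64 ± 0.68, SD, n = 2). Having passed the filter only where it was higher, it is no separate support for a lower signal. With normexp and an offset of 50, which draws ratios of dim spots towards 0, the means were -0.43 ± 0.15 and -0.22 ± 0.08, and neither passed limma (adjusted p = 1). With normexp and an offset of 0 the means were -0.986 and -0.808. Neither probe passed limma there (adjusted p = 0.22 and 0.988), while 30 of 29047 probes did. Over the 10 settings the brighter probe ranged from -1.37 to -0.30, with limma adjusted p from 0.00276 to 1. It passed only with the processed ratios and with the deposited value table that holds the same ratios.

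Other genes of cytokine and STAT3 signalling went both ways. Of 26 genes listed, 23 were tested, and 6 were lower on both arrays, 5 higher on both and 12 opposite, against 18.1% lower and 16.9% higher over 18977 genes. The list median was 0.00 (0.02 in replicate 1 and -0.13 in replicate 2). Over all 13 lists 0 genes passed limma after adjustment, against 0% of genes, and 11 of 149 had an unadjusted p under 0.05, against 1.24% of genes. The lists were chosen with earlier results of these data known, so this count cannot be read as an excess. Socs3, the feedback inhibitor that STAT3 induces, was at -0.48 ± 0.01 (SD, n = 2), with -0.49 and -0.47. Bcl3, an NF-kappa-B regulator, was at -0.42 ± 0.26, and the cytokine Il18 at -0.38 ± 0.07. The receptor chain Il22ra1 (-0.03 ± 0.20), Stat3 itself (0.06 ± 0.59) and Extl3 (0.10 ± 0.66), described as a receptor for Reg proteins, went opposite ways on the arrays. Il6 and Il23a were not well above background in any channel. Of the 21 genes of microbial sensing, all tested, 17 went opposite ways, 2 were lower and 2 higher on both. Their median of -0.02 averages opposite shifts, of 0.21 in replicate 1 and -0.22 in replicate 2. Tnfaip3 and Tlr1 were at 0.47 ± 0.41 and 0.46 ± 0.47, and the adaptor Tirap and the sensor Nod2 at -0.20 ± 0.20 and -0.04 ± 0.02.

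The list of epithelial defence genes includes genes that STAT3 is known to induce. Of 18 tested, 9 were lower on both arrays, 3 higher on both and 6 opposite (median -0.06, with -0.07 and -0.14 in replicates 1 and 2). Over all genes 18.1% were lower on both and 16.9% higher, the shares to set beside each list below. The lists were chosen with earlier results known, so these counts cannot be read as an excess. Fut2, which fucosylates the epithelial surface, was at -0.55 ± 0.11 (SD, n = 2), and in the processed ratios at -0.92 ± 0.34 (limma adjusted p = 0.0893). The acute phase gene Saa2 was at -0.52 ± 0.27. The complement gene C3 and Pigr, the carrier of IgA, were at 0.52 ± 0.42 and 0.26 ± 0.15. Other gut antimicrobials had a median of -0.08 (-0.04 and -0.07 in replicates 1 and 2, and 0.01 with marked spots kept), with 5 of 17 lower on both arrays, 3 higher on both and 9 opposite; this list holds all 11 Paneth cell genes. Slpi, a protease inhibitor, was at 0.36 ± 0.13, and the secreted phospholipase Pla2g2a at -0.25 ± 0.15.

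**Figure D5:**
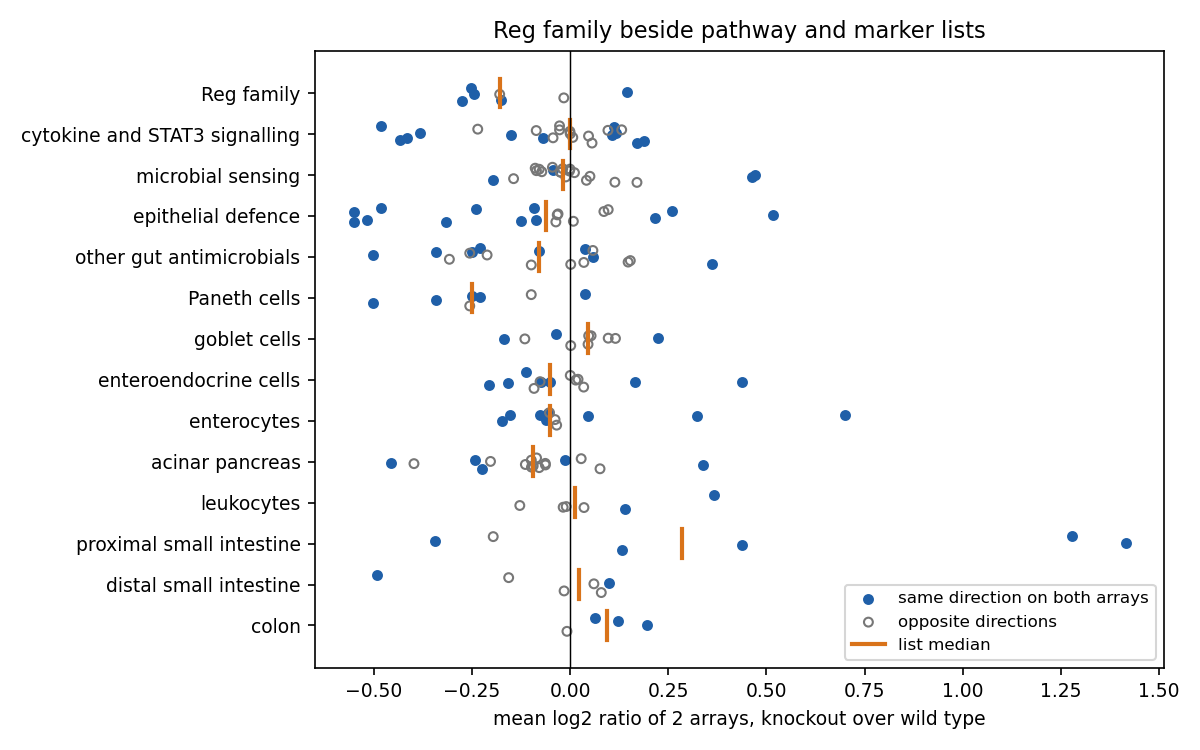
Mean log2 ratio of the 2 arrays, RNA labelled knockout over RNA labelled wild type (x axis), of each tested gene in the Reg family and 13 pathway and marker lists (y axis); filled blue points had the same direction on both arrays, open grey points opposite directions, and the orange bar is the list median. The Reg family median is at -0.18, that of Paneth cells at -0.25 and that of proximal small intestine at 0.28.

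Markers of cells that make Reg proteins are given next, and their part in the Reg values was not tested. Of the Paneth cell genes, 7 of 11 on the array, 4 were lower on both arrays, 1 higher on both and 2 opposite. Over all genes 18.1% were lower on both and 16.9% higher. The median of the Paneth cell genes was -0.25. That median was -0.03 with marked spots kept, -0.08 in replicate 1 alone and -0.22 in replicate 2 alone. Their summed signal in the RNA labelled knockout was 551000 and 595000, against 685000 and 655000 in the RNA labelled wild type. Lyz1, lysozyme, was at -0.50 ± 0.40 (SD, n = 2) and Ang4 at -0.23 ± 0.20. With the processed ratios 7 of 7 Paneth cell genes were lower on both arrays, against 4002 of 18977 genes. Acinar pancreas genes had a median of -0.09 (-0.16 and -0.01 in replicates 1 and 2), with 4 of 17 lower on both, 1 higher on both and 12 opposite. Their summed signal was 102000 and 104000 in the RNA labelled knockout and 113000 and 112000 in the RNA labelled wild type. These sums are mostly the signals of Spink1 (raw 63990 to 75250) and Clps (raw 21510 to 29130). They say little of the other acinar genes. Of the defining acinar genes, Pnlip, Cela2a and Ptf1a were not well above background in any channel, and Cpa1 was so in 1 of 4. Pnliprp1 was at -0.46 ± 0.04, Clps at -0.22 ± 0.02 and Gp2 at 0.34 ± 0.02.

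Goblet cell genes had a median of 0.05 (-0.02 and 0.11 in replicates 1 and 2), with 2 of 10 lower on both arrays, 1 higher and 7 opposite, and Clca1, Spink4 and Atoh1 were at 0.22 ± 0.03, -0.17 ± 0.19 and -0.04 ± 0.01 (SD, n = 2). Enteroendocrine genes had a median of -0.05 (-0.03 and -0.06), with 5 of 13 lower on both, 2 higher and 6 opposite, and Gip, Sst and Sct were at 0.44 ± 0.16, 0.16 ± 0.04 and -0.07 ± 0.00. Enterocyte genes had a median of -0.05 (-0.02 and -0.02, and 0.09 with marked spots kept), with 5 of 11 lower on both, 3 higher and 3 opposite, and Fabp2, Apoa4 and Slc5a1 were at 0.70 ± 0.35, 0.32 ± 0.31 and -0.08 ± 0.05. Of 6 leukocyte genes tested 2 were higher on both and 4 opposite (median 0.01; 0.05 and 0.11 in replicates 1 and 2), with Ptprc at 0.37 ± 0.40.

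Genes that mark the position along the gut were looked at because Reg3b and Reg3g are known to be stronger in the ileum. Of 6 proximal small intestine genes tested 4 were higher on both arrays and 1 lower (median 0.28; 0.38 and 0.25 in replicates 1 and 2), led by Lct (1.41 ± 0.61) and Fabp1 (1.28 ± 0.01). For the 6 genes of distal small intestine the median of 0.02 averages opposite shifts, of 0.30 in replicate 1 and -0.49 in replicate 2, with 1 higher on both, 1 lower and 4 opposite, and Fgf15 was at -0.49 ± 0.23. Of 4 colon genes tested 3 were higher on both and 1 opposite (median 0.09; 0.13 and 0.12 in replicates 1 and 2), with Slc26a3 at 0.20 ± 0.08. Their part in the Reg values was not tested.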

How the data were processed

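Total RNA of both genotypes was hybridised on 2 dual-colour arrays of Agilent design 014868. Intensity values, uncorrected and processed, were deposited as Feature Extraction 11.5.1.1 output per the file headers; the submitters' processing notes name version 9.5. The deposited log10 ratio is processed Cy5 over Cy3, and a deposited p-value gives the software's spot error model. The deposited value table repeats these log10 ratios within 5e-04.

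Spots marked as outliers were left out. Background was corrected with normexp (offset 50) and ratios by loess within each array, in R 4.3.3 with limma 3.58.1. Ratios were turned to knockout over wild type. Probes entered when well above background for 1 genotype on both arrays. The test was lmFit and eBayes of the mean against 0 (1 residual and 3.04 prior degrees of freedom), with Benjamini-Hochberg adjustment over all probes. The fit was tested on simulated data. Names came from RefSeq (GRCm38.p6) through the accession for 29416 of 41174 probes. Lists used the brightest probe of a gene.

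The text names all members, Gpcpd1, and from each pathway list up to 4 genes (markers 3) with the largest smaller ratio of one sign on both arrays, with Il22ra1, Stat3 and Extl3. Iltifb, the acinar genes Cpa1, Pnlip, Cela2a and Ptf1a, Il6 and Il23a were added after their values were seen. The members, the 13 lists and the alternatives were chosen with earlier results of these data known.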

Additional observations from a re-analysis of the deposited data

How the results depend on the processing

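Processing was varied over 9 alternatives and by leaving out each array. For the members, dropping the filter on dim probes or taking the brightest probe leaves the ratios unchanged, and the deposited table repeats the processed ratio. Under the 9 alternatives limma called 0 members, 4 to 6 members were lower on both arrays, 1 was higher, 0 reached 1.5-fold on both, and the family median lay between -0.26 and -0.15. With 1 array left there is no test. Then 4 to 6 members were below 0, 1 to 3 above 0, and the median was -0.26 to -0.08. Reg2 turned to 0.0168 with median centring, and with 1 array left out was at -0.158 to 0.126. Reg3g turned to 0.0521 with marked spots kept, and with 1 array left out was at -0.458 to 0.0998. Among the other named genes, Il22ra1 turned to 0.0428 and Sct to 0.0512 with marked spots kept. Clec2h, of the distal list, turned to -0.00431 with the processed ratio and to -0.00332 with the deposited value table, and Aqp8, of the colon list, to -0.0187 without background correction. With 1 array left out Il22ra1 was at -0.165 to 0.111, Stat3 at -0.362 to 0.473 and Extl3 at -0.369 to 0.562. Of the medians of the 13 lists, 36 values moved beyond the spread between replicates and 107 did not. Other gut antimicrobials turned to 0.00659 and enterocytes to 0.0906 with marked spots kept. Goblet cells turned to -0.0275 with median centring, and the distal list to -0.0278 with it and to -0.0651 with the processed ratio. The cause of these turns was not tested. Lct and Fabp1 passed limma with normexp offset 0, the processed ratio and the deposited table. Dim spots limit Reg2, Reg3d and Il22, and 2 arrays limit all values. The ratio within an array pairs the genotypes, so the test of ratios is paired by array, and no other block was fitted.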

Other observations

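The mean log2 ratio of Cy5 over Cy3, which a dye effect would share between the arrays, was 0.28 for Reg3g and -0.12 for Reg3b. It was 0.14 for Reg2, 0.10 for Reg3d, 0.04 for Reg1, -0.01 for Reg3a and 0.01 for Reg4.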
